A study of Equus caballus with 68 samples.

Results

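The eicosanoid enzymes and receptors followed here are 10 genes of prostaglandin and leukotriene biology: PTGS1 (ENSECAG00000009707), PTGS2 (ENSECAG00000017181), PTGES (ENSECAG00000000943), HPGDS (ENSECAG00000005730), ALOX5 (ENSECAG00000012930), ALOX5AP (ENSECAG00000012371), ALOX15 (ENSECAG00000038698), LTA4H (ENSECAG00000008767), PTGER4 (ENSECAG00000011145) and OXER1 (ENSECAG00000033013). They were chosen by gene symbol among the 30371 genes listed in the expression table, and all 10 were present, each on 1 row. Transcript levels were measured by RNA-seq in equine bone marrow mononuclear cells (BMNC), which are a mixture of progenitors, myeloid cells and lymphocytes isolated from sternal marrow on a density gradient. The 8 donors were adult Thoroughbred horses, mares and geldings aged 3 to 9 years, without osteoarthritis. BMNC of each horse were sequenced uncultured (0 hours, 8 libraries) or after culture in undiluted fluid from its own joints, either normal synovial fluid (SF) from healthy middle carpal joints or inflamed synovial fluid (ISF) from radiocarpal joints in which synovitis had been induced with lipopolysaccharide. Both fluids were freed of their own cells by centrifugation before use. The state of the fluid and the joint it came from cannot be told apart in this design. Cultures were sampled after 48 hours (7 libraries of each fluid, none of Moon), 96 hours (8), 6 days (8) and 10 days (7, none of Flash), always from 1 well of a horse, which gave 68 libraries.

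Eicosanoids are short-lived lipid signals made from arachidonic acid, which phospholipases A2 release from cell membranes. In the cyclooxygenase branch, PTGS1 and PTGS2 make prostaglandin H2, from which terminal synthases form the individual prostanoids: PTGES makes prostaglandin E2, HPGDS makes prostaglandin D2 and TBXAS1 makes thromboxane A2. In the lipoxygenase branch, ALOX5 works with its membrane partner ALOX5AP to make leukotriene A4, which LTA4H turns into leukotriene B4, a strong attractant of neutrophils, or LTC4S turns into cysteinyl leukotrienes. Receptors on the surface of leukocytes and joint cells read these signals, and in synovitis prostaglandin E2 is known for pain and vascular effects, while prostaglandin D2 and products of ALOX15 are known for parts in the ending of inflammation.

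Levels are given as GeTMM, a read count corrected for gene length and for differences between libraries, so that genes could be compared per length. The values moved in whole steps of 1 read, from which the reads behind each value were recovered. Between 15653444 and 35971676 reads lay on genes per library. The marker genes of the cells present changed strongly with time. The summed level of the macrophage genes, all 7 of 7 matched, was 184 to 307 (median 212) GeTMM at 0 hours, 7548 to 13818 (median 9361) in SF and 14796 to 27364 (median 22154) in ISF at 48 hours, whereas that of the mature neutrophil genes, 3 of 5 matched, was 23566 to 66561 (median 33596) at 0 hours, 2456 to 9963 (median 5594) and 2994 to 7758 (median 4882) at 48 hours, and 13.9 to 2740.3 (median 528) and 10.9 to 72.5 (median 50.7) at 10 days. No gene of either list was at 0 in every library of a group. Genes of B cells (3 of 4 matched) and erythroid cells (4 of 5 matched) had median sums of 79.4 and 434 GeTMM at 0 hours, 39.0 and 0.919 in SF and 5.52 and 1.06 in ISF at 10 days. In libraries of a cell mixture, fewer cells of a type and less RNA per cell cannot be told apart. Libraries that stood apart were the SF culture of Moon at 6 days, whose mature neutrophil genes summed to 17755 GeTMM against 159.7 to 6045 in the other SF libraries of that time, and the ISF cultures of Dealings and Dreamer at 96 hours, whose deviations from their group across genes correlated least with those of the SF culture of the same horse (r of -0.015 and -0.22, against a median of 0.36 over 30 such pairs). The Moon library also had a GeTMM total over all genes of 2321940, against 905668 to 1012755 in the other SF libraries of that time. It held the highest value of its group for PTGS2, HPGDS, ALOX5, LTA4H and OXER1, and the lowest for PTGER4 and PTGES. The part of scaling in its values was not tested. Where a call on one of the 10 genes changed with the libraries that stood apart left out, the value without them stands beside it.

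Among the 10 genes, uncultured BMNC carried the leukotriene enzymes ALOX5AP, LTA4H and ALOX5 at high levels and the prostaglandin synthases PTGES and HPGDS at low ones. At 0 hours, mean levels were 1221 ± 286 GeTMM (SD, n = 8) for ALOX5AP, 441 ± 43.6 GeTMM (SD, n = 8) for LTA4H and 403 ± 52.1 GeTMM (SD, n = 8) for ALOX5, followed by the receptors PTGER4 with 67.9 ± 14.4 GeTMM (SD, n = 8) and OXER1 with 24.9 ± 4.82 GeTMM (SD, n = 8). PTGS2 stood at 5.85 ± 4.30 GeTMM (SD, n = 8). PTGS1, HPGDS, ALOX15 and PTGES each stayed below 1 GeTMM in all 8 libraries. After culture the order was another one. In SF at 6 days LTA4H led with 123 ± 62.8 GeTMM (SD, n = 8), followed by ALOX5AP with 108 ± 71.4 GeTMM (SD, n = 8) and ALOX5 with 53.3 ± 20.1 GeTMM (SD, n = 8), and the ranges of these neighbours overlapped. The medians of LTA4H and ALOX5AP were 113 and 110, and the highest LTA4H library was that of Moon (244). HPGDS came next with 30.6 ± 9.74 GeTMM (SD, n = 8), above PTGER4 with 15.1 ± 6.15 GeTMM (SD, n = 8), although the highest PTGER4 library (20.6) exceeded the lowest HPGDS library (16.1). In ISF at 10 days ALOX5 led with 81.1 ± 20.9 GeTMM (SD, n = 7), followed by ALOX5AP with 42.9 ± 20.0 GeTMM (SD, n = 7) and LTA4H with 24.1 ± 3.12 GeTMM (SD, n = 7). Of the 10 genes, 8 reached the level at which genes were tested (0.5 GeTMM in at least 7 libraries). PTGS1 and ALOX15 did not.

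**Figure D1:**
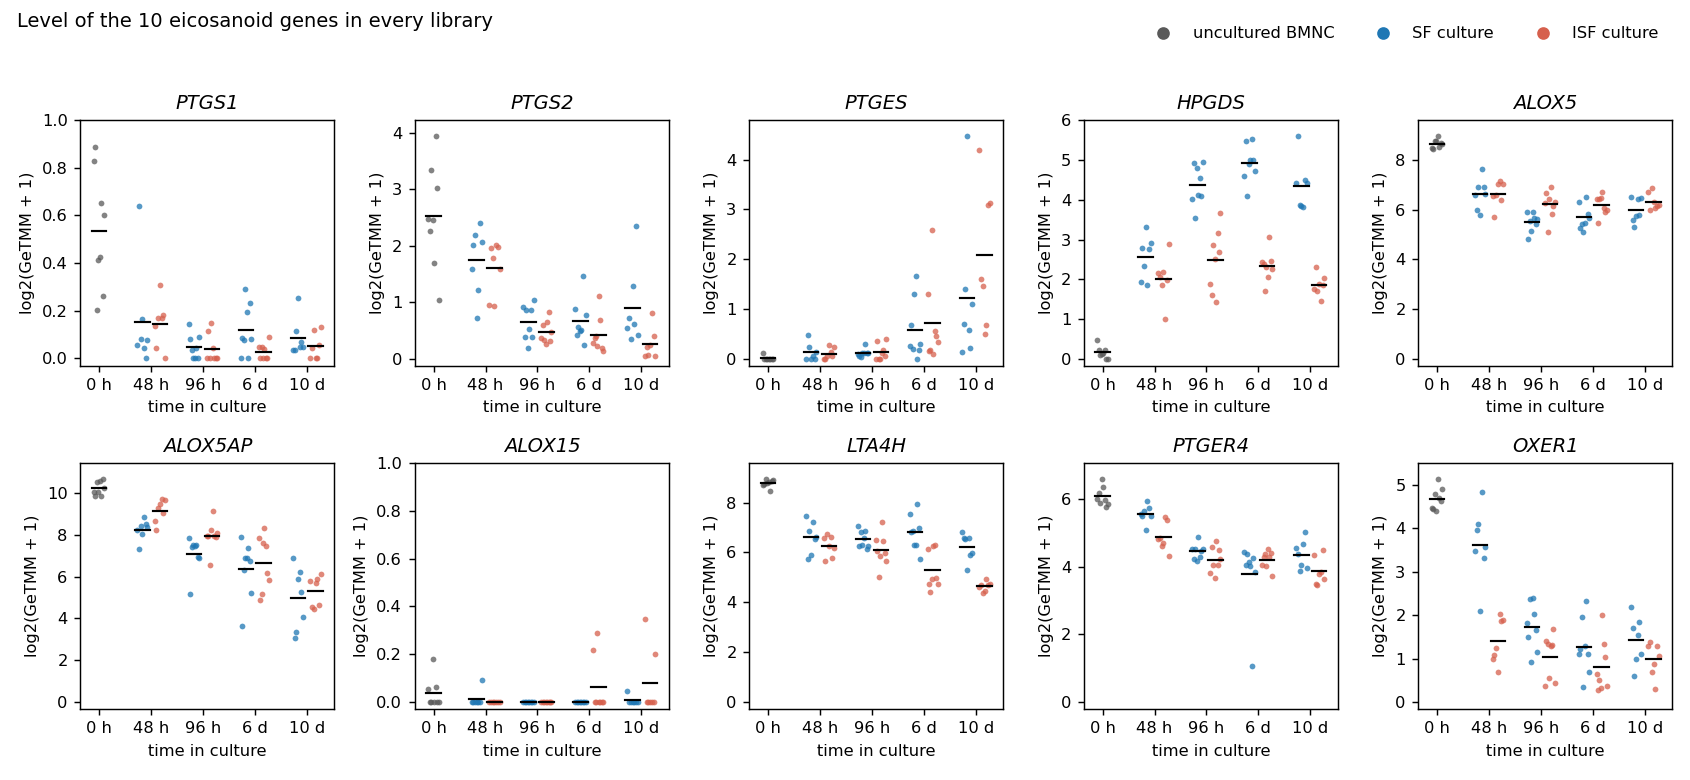
Level of each gene, as log2(GeTMM + 1), in every library against time in culture, with 1 point per horse, grey for uncultured BMNC, blue for SF, red for ISF, and a black bar at the mean of each group. The vertical scale differs between genes. HPGDS climbs in SF to between 10.7 and 29.7 GeTMM at 96 hours and stays between 1.68 and 11.7 in ISF, ALOX5, ALOX5AP, LTA4H and OXER1 start from their highest levels at 0 hours, and PTGES at 10 days runs from 0.10 to 21.3 GeTMM in SF.

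The question put to ISF against SF was how BMNC answer a normal and an inflamed joint environment at each time. HPGDS had the largest difference of the 8 tested members at 96 hours, 6 days and 10 days, and was downregulated in ISF at each of these times. LTA4H was downregulated in ISF at 6 and 10 days, OXER1 was downregulated in ISF at 48 hours, and ALOX5 was upregulated in ISF at 96 hours. Called genes, that is those with a false discovery rate (FDR) under 0.05 over the 14570 genes tested, numbered 1 of the 8 tested members at 48 hours, beside 1.68% of all genes tested, 2 at 96 hours beside 10.5%, 2 at 6 days beside 30.2% and 2 at 10 days beside 20.8%. With 8 genes these shares are close to the background at 6 and 10 days. The median log2 fold change of the tested members was -0.25, -0.21, -0.05 and -0.47 at the 4 times, and the median over all genes was between -0.02 and 0.00 each time. Fold changes are on the scale of log2(GeTMM + 1), which understates those of genes near or below 1 GeTMM.

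**Figure D2:**
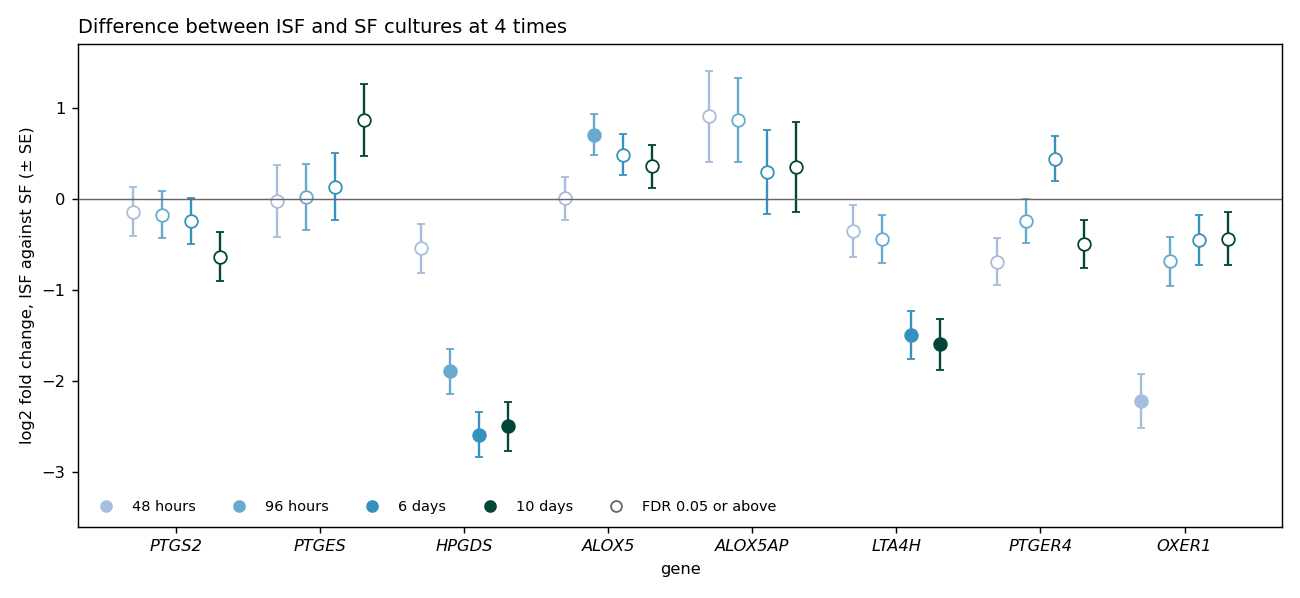
Log2 fold change of ISF against SF with its standard error for the 8 tested genes at 48 hours, 96 hours, 6 days and 10 days. Filled points have an FDR under 0.05 and open points do not. HPGDS falls to -2.59 at 6 days, LTA4H to -1.60 at 10 days, and OXER1 is lowest at 48 hours (-2.22).

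In the cyclooxygenase branch, PTGS1, the constitutive cyclooxygenase, was close to the limit of detection throughout. It was highest in uncultured BMNC, with 0.150 to 0.850 GeTMM (median 0.429), and the highest of the 60 cultured libraries, the SF culture of Dealings at 48 hours, held 0.557 GeTMM. When the filter on low values was left out, PTGS1 fell between 0 and 48 hours in ISF by 0.39 and in SF by 0.38 on the log2 scale (FDR = 1.8e-06 and 3.51e-06) and was not called in any other of the 13 comparisons.

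PTGS2, the inducible cyclooxygenase that inflammation switches on in many cells, fell in culture in both fluids. It ranged from 1.05 to 14.4 GeTMM (median 4.53) at 0 hours, from 0.645 to 4.32 (median 3.06) in SF and 0.914 to 3.04 (median 2.46) in ISF at 48 hours, and from 0.141 to 1.06 (median 0.636) and 0.194 to 0.766 (median 0.346) at 96 hours. The decrease from 0 to 48 hours (SF -0.79 ± 0.26, FDR = 0.011, ISF -0.93 ± 0.26, FDR = 0.00215) was followed by a further one to 96 hours (SF -1.09 ± 0.26, FDR = 0.000879, ISF -1.12 ± 0.26, FDR = 0.00105). Levels at 0 and 48 hours overlapped, and those at 48 and 96 hours overlapped in SF, while in ISF the lowest library at 48 hours (0.914) lay above the highest at 96 hours (0.766). The fall in SF from 0 to 48 hours was not called with a pseudocount of 0.1 (FDR = 0.0759), when only those groups were fitted (0.0908), with library weights (0.186) or without Flash (0.0662).

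PTGS2 was not called between fluids at any time, and at each time its estimate was lower in ISF. The differences from SF were -0.14 ± 0.27, -0.17 ± 0.25, -0.24 ± 0.25 and -0.64 ± 0.27 (SE) on the log2 scale, in order of time, with FDR of 0.883, 0.75, 0.511 and 0.0852. At 6 days PTGS2 held 0.188 to 1.76 GeTMM (median 0.451) in SF and 0.105 to 1.16 (median 0.256) in ISF, with 7 of 8 horses lower in ISF. At 10 days it held 0.272 to 4.13 GeTMM (median 0.528) in SF and 0.0339 to 0.764 GeTMM (median 0.152) in ISF, and it was lower in ISF in 6 of 7 horses, although the ranges overlapped. This last difference was near the threshold: with horse as a block it had an FDR of 0.0499, with a pseudocount of 0.1 it was -1.7 ± 0.48, FDR = 0.00738, in voom on recovered reads -2.42 ± 0.79, FDR = 0.0221, and without Moon -0.78 ± 0.27, FDR = 0.0257. Between 2 and 43 reads per ISF library stood behind these values.

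PTGES, the inducible microsomal synthase of prostaglandin E2, appeared late. At 0 hours 7 of 8 libraries held no read, and up to 96 hours its mean stayed at or below 0.108 GeTMM in each group. At 6 days it held 0 to 2.19 GeTMM (median 0.214) in SF and 0.0711 to 5.01 GeTMM (median 0.318) in ISF, and at 10 days 0.10 to 21.3 GeTMM (median 0.623) and 0.409 to 17.2 GeTMM (median 2.03). Both fluids overlapped throughout, and horses differed widely within each fluid. In ISF the rise from 6 to 10 days was called (log2 fold change 1.38 ± 0.38 (SE), FDR = 0.00997). It was the only member called over this interval, 1 of 8 tested, beside 10.5% of all genes tested (5.09% higher and 5.44% lower). The call was lost when only these groups were fitted (FDR = 0.13) or without Catnip (0.0655), Ollie (0.0899) or RimRun (0.0898), the horses with the highest ISF levels at 10 days (17.2, 7.57 and 7.75 GeTMM).

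Between fluids at 10 days, PTGES was higher in ISF in 6 of 7 horses but was not called (log2 fold change 0.87 ± 0.39 (SE), FDR = 0.11). The exception was Lurie, whose SF culture held 21.3 GeTMM, while the other SF cultures held 0.10 to 1.63. Without this library the difference was 1.41 ± 0.33, FDR = 0.00115, and without the horse it was 1.67 ± 0.32, FDR = 0.000137. The library was left out after the values had been seen. The same library had by far the highest sum of the fibroblast or stromal genes, all 5 of 5 matched: 4038 GeTMM, beside 0.406 to 517 in the other SF cultures and 0.123 to 49.2 in the ISF cultures of that time. The part of these cells in the PTGES level was not tested.

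HPGDS, the hematopoietic synthase of prostaglandin D2 and known from mast cells, some T cells, megakaryocytes and macrophages, was nearly absent at 0 hours and present in every culture. Uncultured BMNC held 0 to 0.402 GeTMM (median 0.0987), a total of 12 reads over 8 libraries. At 48 hours HPGDS stood at 2.63 to 9.05 GeTMM (median 5.83) in SF and 1.00 to 6.45 GeTMM (median 3.18) in ISF. Every cultured library was above every uncultured one. The rise from 0 to 48 hours was called in SF (log2 fold change 2.4 ± 0.26 (SE), FDR = 8.2e-12) and in ISF (1.86 ± 0.26, FDR = 1.14e-08).

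After 48 hours the fluids parted. In SF, HPGDS held 10.7 to 29.7 GeTMM (median 19.4) at 96 hours, 16.1 to 45.0 (median 30.1) at 6 days and 13.2 to 48.0 (median 20.5) at 10 days, of which the step from 48 to 96 hours was called (1.81 ± 0.26, FDR = 1.32e-07). In ISF it held 1.68 to 11.7 GeTMM (median 5.11) at 96 hours, 2.25 to 7.31 (median 4.06) at 6 days and 1.72 to 3.98 (median 2.66) at 10 days, and no step after 48 hours was called (FDR from 0.232 to 0.827). The libraries of both fluids overlapped at 96 hours only through the ISF culture of RimRun (11.7 GeTMM) and the SF culture of Dreamer (10.7), and at 6 and 10 days they were apart.

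HPGDS was lower in ISF at each later time than 48 hours. At 48 hours the difference was -0.54 ± 0.27, FDR = 0.352, with 6 of 7 horses lower in ISF. At 96 hours it was -1.89 ± 0.25, FDR = 1.75e-07, at 6 days -2.59 ± 0.25, FDR = 3.87e-12 and at 10 days -2.50 ± 0.27, FDR = 3.93e-10, and every horse was lower in ISF at these times (8 of 8, 8 of 8 and 7 of 7). As a ratio of mean GeTMM, SF was 3.91 times ISF at 96 hours, 7.30 times at 6 days and 8.0 times at 10 days. Within horses, ISF minus SF on the log2 scale ran from -3.32 to -0.67 (median -1.76) at 96 hours, from -3.10 to -2.17 (median -2.51) at 6 days and from -3.30 to -1.96 (median -2.38) at 10 days. These calls held in all 18 alternatives. With the ISF cultures of Dealings and Dreamer left out the difference then was -1.81 ± 0.27, FDR = 3.95e-06, and with the SF culture of Moon at 6 days left out it was -2.50 ± 0.26, FDR = 2.38e-11. The difference between fluids itself grew from 48 hours to 10 days (interaction -1.96 ± 0.38, FDR = 0.00117).

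Marker genes of cell types that are known to make HPGDS were set beside it. The mast cell and basophil genes, all 5 of 5 matched, summed to at most 2.07 GeTMM in any cultured library, where HPGDS reached 48.0, and CPA3 was at 0 in every library of SF at 96 hours and 10 days and of ISF at 6 and 10 days, as was HDC in SF at 10 days. The platelet and megakaryocyte genes (4 of 5 matched) had median sums of 232 in SF and 16.0 in ISF at 6 days, and of 11.5 and 6.11 at 10 days. The T cell genes (5 of 5 matched) had median sums of 129 and 32.4 at 6 days and 103 and 7.61 at 10 days, and these medians were lower in ISF together with HPGDS. Over time the medians of these 2 lists went with that of HPGDS over some steps and against it over others. At 0 hours, where the HPGDS median was 0.0987, the platelet and megakaryocyte median was 834 and the T cell median 199.8, above every cultured group. In SF the HPGDS median was 5.83, 19.4, 30.1 and 20.5 at 48 hours, 96 hours, 6 days and 10 days. The T cell median was 103.97, 90.1, 129 and 103 at these times, highest at 6 days like that of HPGDS. The platelet and megakaryocyte median was 181, 289, 232 and 11.5. It rose with HPGDS to 96 hours, fell to 6 days while HPGDS rose, and fell with it to 10 days. In ISF the medians of both lists fell over each interval after 48 hours, while that of HPGDS rose to 96 hours and fell afterwards. Between fluids the macrophage genes went the other way from HPGDS. Their median sums were 37453 in SF and 58758 in ISF at 6 days and 45561 and 64174 at 10 days. In the first 48 hours they rose as HPGDS did, from 212 to 9361 in SF and 22154 in ISF. The part of any of these cells in the HPGDS level was not tested.

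PTGER4, the EP4 receptor through which prostaglandin E2 acts on leukocytes, was present in every library and was lower in culture than in uncultured BMNC. It held 53.9 to 96.1 GeTMM (median 62.8) at 0 hours, 32.7 to 61.1 (median 46.6) in SF and 18.8 to 43.4 (median 27.5) in ISF at 48 hours, 16.9 to 28.6 (median 21.5) and 11.7 to 26.3 (median 16.8) at 96 hours, and 13.6 to 32.0 (median 19.8) and 10.0 to 21.7 (median 12.7) at 10 days. The SF libraries overlapped the uncultured ones at 48 hours and no longer at 96 hours. The fall from 0 to 48 hours was called in ISF (-1.20 ± 0.25, FDR = 5.95e-05), where the ranges were apart, and not in SF (-0.51 ± 0.25, FDR = 0.0959, with horse as a block FDR = 0.0451). In SF the fall from 48 to 96 hours was called (-1.12 ± 0.25, FDR = 0.000444), and in ISF the change over the same interval lay just above the threshold (-0.67 ± 0.25, FDR = 0.0518) and was called in 6 of 18 alternatives.

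At 48 hours PTGER4 was lower in ISF in 7 of 7 horses, and again at 10 days, but neither difference was called over all genes (-0.69 ± 0.26, FDR = 0.175 and -0.50 ± 0.26, FDR = 0.179). The fit of this gene rested on 1 library: the SF culture of Moon at 6 days held 1.1 GeTMM in 17 reads and the other SF cultures of that time 13.5 to 20.6. Without it, the change in SF from 0 to 48 hours had an FDR of 0.00889 and that in ISF from 48 to 96 hours 0.00154, the same differences between fluids had an FDR of 0.0119 and 0.0257, and that at 6 days went from 0.44 ± 0.24 to 0.05 ± 0.17, FDR = 0.835. Library weights, which give less weight to such libraries, also brought both differences under the threshold (0.00235 and 0.0195) and the ISF change from 48 to 96 hours (0.000641).

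The other genes of the cyclooxygenase branch were taken from lists by role, and of 48 genes listed for both branches 40 were matched by symbol and 27 were tested. At 48 hours 0 of these 27 were called higher in ISF, beside 0.872% of all genes tested, and 1 lower, beside 0.81%. At 96 hours 1 was higher (6.16% of all genes) and 4 lower (4.3%), at 6 days 3 were higher (16.7%) and 8 lower (13.6%), and at 10 days 3 were higher (9.95%) and 9 lower (10.8%). TBXAS1, the thromboxane synthase, was lower in ISF at the same times as HPGDS and also at 48 hours. It held a mean of 47.0 ± 15.9 GeTMM (SD, n = 8) in SF and 9.34 ± 7.53 GeTMM (SD, n = 8) in ISF at 6 days. The difference was called at 48 hours (-1.49 ± 0.39, FDR = 0.0274), 96 hours (-2.07 ± 0.36, FDR = 4.96e-05), 6 days (-2.51 ± 0.36, FDR = 2.12e-07) and 10 days (-2.61 ± 0.39, FDR = 9.9e-07), in every horse at each time. At 48 hours it was called in 12 of 18 alternatives, with an FDR of up to 0.15 without Lurie, and at the later times in all 18.

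Of the 3 tested genes of prostaglandin breakdown and transport, PTGR1, a reductase that inactivates leukotriene B4 and oxidized prostaglandins, was lower in ISF at 96 hours (-2.13 ± 0.48, FDR = 0.00131), 6 days (-2.35 ± 0.48, FDR = 9.96e-05) and 10 days (-1.72 ± 0.51, FDR = 0.0106), in every horse, although at 10 days not without Dreamer (FDR = 0.0536). HPGD, which starts the breakdown of prostaglandin E2, and ABCC4, which carries prostaglandins out of the cell, were not called in ISF against SF by limma (lowest FDR 0.122). Both receptors of prostaglandin D2 were lower in ISF at times when its synthase was: PTGDR2 at 96 hours (-0.98 ± 0.18, FDR = 8.33e-05), 6 days (-1.35 ± 0.18, FDR = 2.17e-08) and 10 days (-1.13 ± 0.19, FDR = 8.56e-06), and PTGDR at 6 days (-1.03 ± 0.30, FDR = 0.00663) and 10 days (-1.20 ± 0.32, FDR = 0.00485). The difference in PTGDR2 between fluids also grew from 48 hours to 10 days (interaction -1.07 ± 0.27, FDR = 0.0151, lost under quantile normalization with FDR = 0.0847). PTGER1, a receptor of prostaglandin E2, and TBXA2R, the thromboxane receptor, were lower at 6 days (-0.55 ± 0.17, FDR = 0.0106 and -0.69 ± 0.19, FDR = 0.00316) and at 10 days (-0.58 ± 0.18, FDR = 0.0171 and -0.59 ± 0.20, FDR = 0.0272), where both calls were lost under quantile normalization (FDR = 0.135 and 0.224) and held in 16 and 13 of 18 alternatives. Of the calls at 6 days, that of PTGDR held in 17, that of PTGER1 in 16 and that of TBXA2R in 17 of 18 alternatives. PTGIR, the prostacyclin receptor, went the other way and was higher in ISF at 96 hours (1.28 ± 0.31, FDR = 0.00354, with the ISF cultures of Dealings and Dreamer left out FDR = 0.048) and 6 days (1.78 ± 0.31, FDR = 1.07e-05), in 8 of 8 horses each. PTGER2, another receptor of prostaglandin E2, was lower at 10 days (-0.56 ± 0.21, FDR = 0.0429), and PTGES3, a cytosolic synthase of prostaglandin E2 and cochaperone, was higher then (0.34 ± 0.10, FDR = 0.00928). Of the 4 tested phospholipases A2, PLA2G2D, a secreted form, was lower in ISF at 6 days (-0.44 ± 0.17, FDR = 0.0476) and PLA2G4A, the cytosolic form that releases arachidonic acid, at 10 days (-0.73 ± 0.23, FDR = 0.016). These 4 single calls of PTGER2, PTGES3, PLA2G2D and PLA2G4A held in 7, 16, 8 and 14 of 18 alternatives. In time, PLA2G7, the hydrolase of platelet-activating factor, rose from 1.09 ± 0.470 GeTMM (SD, n = 8) at 0 hours to 243 ± 82.5 GeTMM (SD, n = 7) in SF and 262 ± 62.1 GeTMM (SD, n = 7) in ISF at 48 hours.

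**Figure D3:**
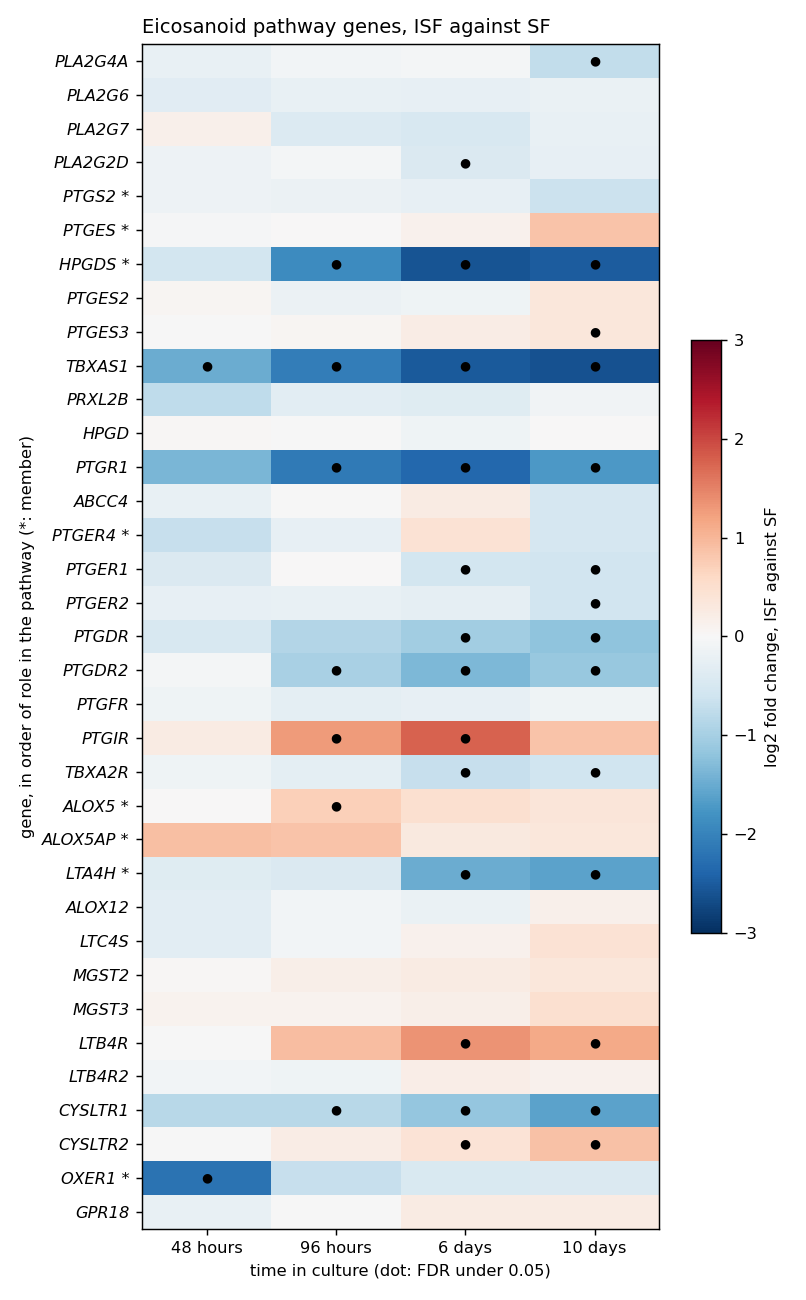
Log2 fold change of ISF against SF (color, red higher and blue lower in ISF) for the 8 tested members, marked with an asterisk, and 27 other tested genes of the pathway, in order of role from top to bottom, at 4 times. A dot marks an FDR under 0.05. HPGDS, TBXAS1 and PTGR1 form the darkest blue rows, while PTGIR and LTB4R are red at 6 days (1.78 and 1.34).

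In the lipoxygenase branch, ALOX5, the arachidonate 5-lipoxygenase, fell in both fluids in the first 48 hours. It held 341 to 500.1 GeTMM (median 403) at 0 hours, 53.4 to 195 (median 96.8) in SF and 51.6 to 141 (median 95.6) in ISF at 48 hours. The uncultured libraries lay above all cultured ones. The decrease was -2.02 ± 0.23, FDR = 3.57e-11 in SF and -2.01 ± 0.23, FDR = 2.69e-11 in ISF, and at 48 hours the fluids differed by 0.01 ± 0.24 (FDR = 0.997). From 48 to 96 hours ALOX5 fell further in SF (-1.13 ± 0.23, FDR = 9.19e-05), to 27.5 to 58.6 GeTMM (median 46.5), and in ISF the change was -0.43 ± 0.23, FDR = 0.197, to 33.6 to 118 (median 77.3).

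At 96 hours ALOX5 was higher in ISF (0.71 ± 0.22, FDR = 0.0281), in 7 of 8 horses, with overlapping ranges. The call was lost without Dealings (0.55 ± 0.22, FDR = 0.119) and also without Flash, Lurie, Ollie or RimRun (FDR from 0.0581 to 0.097), and it held when the ISF cultures of Dealings and Dreamer were left out (0.81 ± 0.23, FDR = 0.0189). Dreamer was the exception in direction, with 33.6 GeTMM in ISF and 45.4 in SF. At 6 days ALOX5 held 33.2 to 90.2 GeTMM (median 46.4) in SF and 43.3 to 102 (median 74.5) in ISF, and at 10 days 38.6 to 90.2 (median 53.4) and 61.9 to 117 (median 72.3). The ranges overlapped at both times. At 6 days the difference was 0.49 ± 0.22, FDR = 0.0882 (with horse as a block FDR = 0.0487, without the SF library of Moon 0.0278), and at 10 days 0.36 ± 0.24, FDR = 0.308.

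ALOX5AP, the membrane protein that hands arachidonic acid to ALOX5, had the highest level of the 10 genes at 0 hours, and every cultured library lay below every uncultured one. It held 909.5 to 1632 GeTMM (median 1135) at 0 hours, 160.3 to 467 (median 326) in SF and 303 to 839 (median 612) in ISF at 48 hours, 34.4 to 231 (median 174) and 94.3 to 558 (median 243) at 96 hours, 11.5 to 238 (median 110.2) and 28.7 to 315 (median 122) at 6 days, and 7.40 to 116 (median 37.9) and 21.0 to 68.9 (median 50.4) at 10 days. In the fit of all libraries without a horse term, the first step in SF was called (-1.97 ± 0.48, FDR = 0.000502) and most of the others lay close to the threshold. With horse as a block, which takes out constant differences between horses, the steps in ISF were called at all 4 intervals (FDR of 0.0148, 0.00616, 0.00801 and 0.00727, in order of time, beside 0.0545, 0.0727, 0.0788 and 0.0585 without), and those in SF from 48 to 96 hours (0.00595 beside 0.065) and from 6 to 10 days (0.0106 beside 0.0693). Other settings also called some of these steps. Library weights called all 4 in ISF (0.0186, 0.025, 0.0182 and 0.0421) and that in SF from 48 to 96 hours (0.0143), and when only those groups were fitted the first and second ISF steps (0.000462 and 0.00866) and the SF step from 48 to 96 hours (0.0134) were called. Voom on recovered reads called the first ISF step (0.0483). With the SF culture of Moon at 6 days left out, the first and the last ISF step had an FDR of 0.0492 and 0.0441, and with the ISF cultures of Dealings and Dreamer left out the third was -1.54 ± 0.50, FDR = 0.0468. Between fluids ALOX5AP was higher in ISF in 7 of 7 horses at 48 hours and 7 of 8 at 96 hours, but neither difference was called (0.90 ± 0.49, FDR = 0.412 and 0.87 ± 0.46, FDR = 0.247, and with horse as a block 0.157 and 0.0749).

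LTA4H, the hydrolase that makes leukotriene B4, started at 353 to 493 GeTMM (median 447) and was at 52.1 to 178 (median 96.0) in SF and 49.3 to 107 (median 75) in ISF at 48 hours. The uncultured libraries lay above all cultured ones, and the decrease was called in SF (-2.16 ± 0.27, FDR = 1.05e-09) and ISF (-2.52 ± 0.27, FDR = 6.57e-12). In SF it then held 70.0 to 131 GeTMM (median 85.6) at 96 hours, 51.8 to 244 (median 113) at 6 days and 38.1 to 112 (median 91.3) at 10 days, and no further step was called. In ISF it held 31.0 to 146 GeTMM (median 64.4), 20.4 to 77.2 (median 29.8) and 20.0 to 29.4 (median 24.6) at these times. The steps in ISF to 6 days (-0.78 ± 0.26, FDR = 0.0612) and to 10 days (-0.67 ± 0.27, FDR = 0.115) were called with horse as a block (FDR = 0.0186 and 0.0337) and not in the fit without it. The step to 6 days was also called with the ISF cultures of Dealings and Dreamer left out (-0.97 ± 0.28, FDR = 0.023) and in the fit without the SF library of Moon (0.0341), as it was with library weights (0.0129) and quantile normalization (0.0409).

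Between fluids, LTA4H differed by -0.36 ± 0.28 at 48 hours and -0.44 ± 0.26 at 96 hours (FDR = 0.626 and 0.319), and it was downregulated in ISF at 6 days (-1.49 ± 0.26, FDR = 1.12e-05) and 10 days (-1.60 ± 0.28, FDR = 2.17e-05), in 8 of 8 and 7 of 7 horses. The mean in SF was 2.79 times that in ISF at 6 days and 3.26 times at 10 days. At 6 days the ranges overlapped through the ISF cultures of Catnip, Lurie and Moon (69.8, 74.6 and 77.2 GeTMM), and the cultures of Lurie differed by -0.05 log2 units. At 10 days the highest ISF library (29.4) lay below the lowest SF library (38.1). With the SF culture of Moon at 6 days left out the difference there was -1.33 ± 0.26, FDR = 6.05e-05. Both calls held in all 18 alternatives. That the difference grew from 48 hours to 10 days was not called (-1.24 ± 0.40, FDR = 0.0666), but was with horse as a block (FDR = 0.0187) and with the SF culture of Moon at 6 days left out (FDR = 0.0374), among other settings.

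Genes of neutrophils were also lower in culture than at 0 hours. Neutrophil precursor genes (6 of 8 matched) had median sums of 14556 GeTMM at 0 hours, 2904 in SF and 3222 in ISF at 48 hours, 1613 and 192 at 6 days, and 173 and 18.2 at 10 days. At 10 days the mature neutrophil genes had medians of 528 in SF and 50.7 in ISF. The medians then were 53.4 and 72.3 for ALOX5, 37.9 and 50.4 for ALOX5AP and 91.3 and 24.6 for LTA4H. From 0 hours to 10 days in ISF, the median of the mature neutrophil genes went from 33596 to 50.7. Over the same span the median of ALOX5 went from 403 to 72.3, that of ALOX5AP from 1135 to 50.4 and that of LTA4H from 447 to 24.6. The part of these cells in the levels of the enzymes was not tested.

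ALOX5 and LTA4H act in succession, and their ratio differed between the fluids. The ratio of LTA4H to ALOX5, a description chosen after the values had been seen and given with no test, was 0.905 to 1.27 (median 1.15) in uncultured BMNC. It was 0.762 to 1.85 (median 0.972) in SF and 0.551 to 1.12 (median 0.696) in ISF at 48 hours, 1.57 to 2.74 (median 2.25) and 0.637 to 1.55 (median 0.914) at 96 hours, 1.05 to 3.03 (median 2.37) and 0.241 to 1.19 (median 0.552) at 6 days, and 0.720 to 2.37 (median 1.12) and 0.171 to 0.449 (median 0.352) at 10 days. In ISF at 10 days ALOX5 was above LTA4H in every library, and in SF at 96 hours and 6 days LTA4H was above ALOX5 in every library. The ranges of the fluids were apart at 96 hours and at 10 days.

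**Figure D4:**
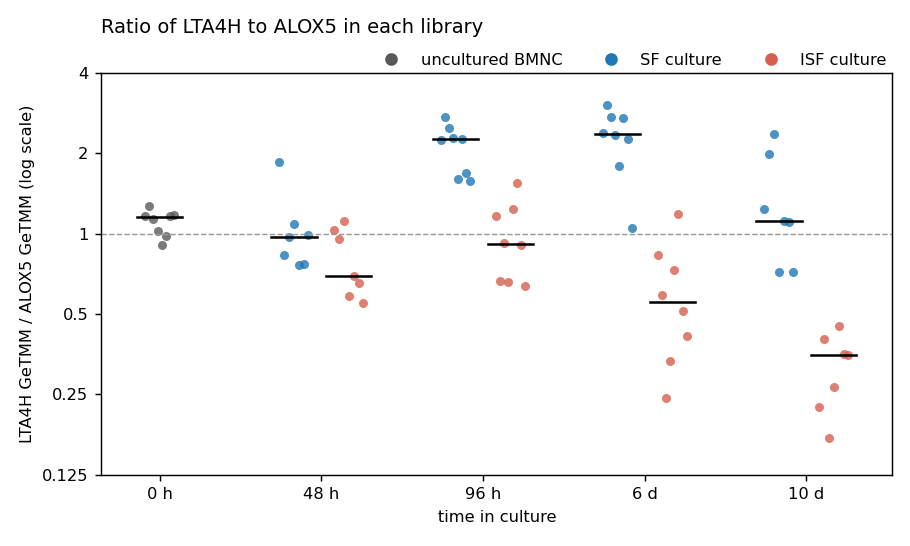
Ratio of LTA4H to ALOX5, each in GeTMM, in every library on a log scale against time in culture, with 1 point per horse, a black bar at the median of each group and a dashed line at 1. At 10 days the ISF libraries lie between 0.171 and 0.449 and the SF libraries between 0.720 and 2.37.

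ALOX15, the lipoxygenase that acts in the making of lipoxins and other mediators of resolution, was at or near 0 in all groups. No read was found in any library of ISF at 48 hours or 96 hours or of SF at 96 hours or 6 days, which allows a level of up to 0.0880 to 0.188 GeTMM per library (3 reads, counting error only). The highest values were 0.273 GeTMM in the ISF culture of Catnip at 10 days (6 reads) and 0.223 in that of Flash at 6 days (7 reads), and 9 of 68 libraries held any read. With the filter left out, ALOX15 was not called in any of the 13 comparisons (lowest FDR 0.174). In the other 59 libraries ALOX15 was not detectable at this depth.

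OXER1, the receptor of the ALOX5 product 5-oxo-ETE and known from neutrophils, eosinophils and monocytes, was the only one of the 8 tested members called between fluids at 48 hours. Uncultured BMNC held 19.9 to 34.0 GeTMM (median 24.1). At 48 hours it held 3.28 to 27.3 GeTMM (median 10.9) in SF and 0.62 to 3.06 GeTMM (median 1.36) in ISF. The lowest SF culture, that of Flash (3.28), lay just above the highest ISF culture, that of Lurie (3.06), so the fluids did not overlap. OXER1 was downregulated in ISF (log2 fold change -2.22 ± 0.29 (SE), FDR = 2.84e-06) in 7 of 7 horses, by 1.4 to 2.88 log2 units within horses, and the call held in all 18 alternatives. Of all genes tested, 0.81% were called lower in ISF at this time. The mean of OXER1 in SF was 7.29 times that in ISF.

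Over time OXER1 fell in SF over both of the first intervals and in ISF over the first. From 0 to 48 hours the change was -1.06 ± 0.28, FDR = 0.0015 in SF and -3.28 ± 0.28, FDR = 1.55e-15 in ISF. From 48 to 96 hours it fell by another 1.89 log2 units in SF (SE 0.28, FDR = 3.93e-07), and in ISF the change was -0.35 ± 0.28, FDR = 0.434. At 96 hours it held 0.889 to 4.25 GeTMM (median 2.34) in SF and 0.292 to 2.18 (median 1.47) in ISF and the difference was -0.69 ± 0.27, FDR = 0.0962, lower in 7 of 8 horses, with horse as a block FDR = 0.031. It then held 0.269 to 4.02 GeTMM (median 1.25) in SF and 0.218 to 2.98 (median 0.491) in ISF at 6 days, and 0.509 to 3.58 (median 1.90) and 0.239 to 1.60 (median 1.08) at 10 days, with overlapping ranges. The differences at 6 and 10 days were -0.45 ± 0.27, FDR = 0.221 and -0.44 ± 0.29, FDR = 0.311. The smaller difference at 10 days than at 48 hours was called (interaction 1.78 ± 0.41, FDR = 0.00765), but not with a pseudocount of 0.1 (FDR = 0.0802), in voom (0.14) or without Dreamer (0.0633). OXER1 at 10 days rested on 4 to 28 reads per ISF library. Of the cells that OXER1 is known from, the eosinophil genes (3 of 4 matched) had median sums of 23.3 GeTMM at 0 hours and 0.863 in SF and 0.480 in ISF at 48 hours, and the monocyte genes (2 of 4 matched) of 151, 286 and 358. In the same order, the mature neutrophil genes (3 of 5 matched) had median sums of 33596, 5594 and 4882. The neutrophil precursor genes (6 of 8 matched) had 14556, 2904 and 3222. The part of these cells in the OXER1 level was not tested.

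**Figure D5:**
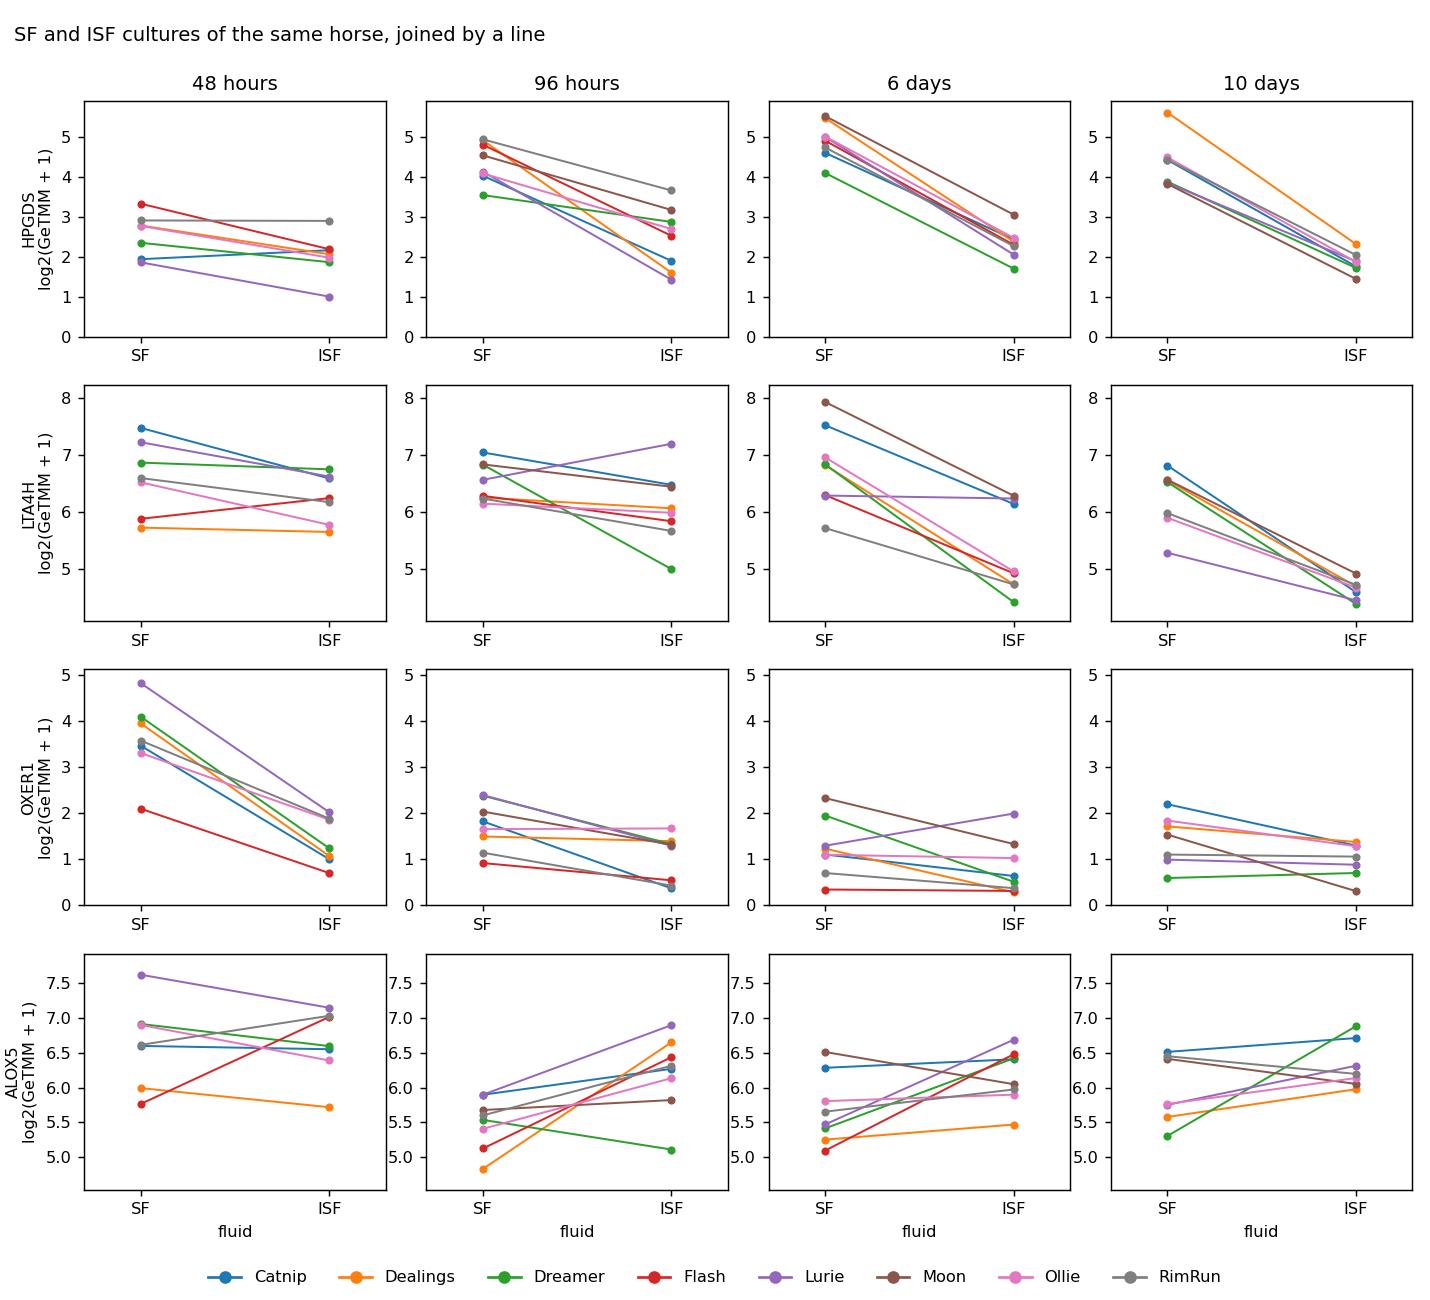
Levels of HPGDS, LTA4H, OXER1 and ALOX5, as log2(GeTMM + 1), in the SF and ISF culture of each horse at 4 times, with 1 line per horse. All lines of HPGDS fall at 96 hours, 6 days and 10 days, those of LTA4H at 6 and 10 days, and those of OXER1 at 48 hours, while the lines of ALOX5 go in both directions at each of the 4 times.

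Among the other genes of the lipoxygenase branch, 4 leukotriene receptors were tested between fluids. Of these 0 were called at 48 hours, beside 1.68% of all genes tested, and 1 was called lower in ISF at 96 hours, beside 10.5%. At 6 days 2 were called higher and 1 lower, beside 30.2%, and at 10 days 2 higher and 1 lower, beside 20.8%. The 3 tested genes of cysteinyl leukotriene synthesis (LTC4S, MGST2 and MGST3), the platelet lipoxygenase ALOX12 and GPR18, a receptor linked to resolvin D2, were not called in ISF against SF by limma at any of the 4 times (lowest FDR 0.111). LTC4S, the synthase of leukotriene C4, fell from 0 to 48 hours in SF (-2.27 ± 0.30, FDR = 3.63e-09) and ISF (-2.59 ± 0.30, FDR = 4.71e-11). LTB4R, the main receptor of leukotriene B4 on leukocytes, was higher in ISF at 6 days (1.34 ± 0.37, FDR = 0.00396, lost when only those groups were fitted, FDR = 0.0802) and 10 days (1.13 ± 0.40, FDR = 0.0341, held in 13 of 18 alternatives, without Dealings FDR = 0.195), the times at which LTA4H was lower. CYSLTR1 was lower in ISF at 6 days (-1.15 ± 0.28, FDR = 0.00104) and 10 days (-1.62 ± 0.30, FDR = 4.14e-05), and at 96 hours (-0.83 ± 0.28, FDR = 0.0436) a call that held in 8 of 18 alternatives and was lost with the ISF cultures of Dealings and Dreamer left out (FDR = 0.0787). CYSLTR2, the other receptor of cysteinyl leukotrienes, was higher in ISF at 10 days (0.87 ± 0.16, FDR = 4.14e-05) in 7 of 7 horses and at 6 days (0.41 ± 0.15, FDR = 0.0331, held in 11 of 18 alternatives), and the difference grew from 48 hours to 10 days (interaction 0.89 ± 0.23, FDR = 0.0164, when only those groups were fitted FDR = 0.0534).

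Over the intervals, more members were called in the first 48 hours than later, as held for all genes tested. From 0 to 48 hours 6 of the 8 tested members were called in SF, 1 higher and 5 lower, beside 45.4% of all genes tested (22.3% higher and 23.1% lower), and likewise 6 in ISF, 1 higher and 5 lower, beside 52.7% of all genes tested (25.3% higher and 27.4% lower). From 48 to 96 hours 5 were called in SF (1 higher, 4 lower) beside 27.3% of all genes tested (11.5% higher and 15.8% lower), and 1 in ISF (lower) beside 19% of all genes tested (8.54% higher and 10.4% lower). From 96 hours to 6 days 0 were called in SF beside 2.05% of all genes tested (0.432% higher and 1.61% lower) and 0 in ISF beside 6.38% of all genes tested (2.83% higher and 3.54% lower), by limma. At an unadjusted p under 0.05 there were 2 in each fluid, HPGDS and PTGER4 in SF and ALOX5AP and LTA4H in ISF, and voom on recovered reads called 0 in each. With horse as a block both of the latter were called (FDR = 0.00801 and 0.0186). From 6 to 10 days 0 were called in SF beside 4.78% of all genes tested (3.19% higher and 1.59% lower), with 4 at an unadjusted p under 0.05 (HPGDS, ALOX5AP, LTA4H and PTGER4) and 0 by voom, and 1 in ISF, PTGES, beside 10.5% of all genes tested (5.09% higher and 5.44% lower). With horse as a block the counts were 2 in ISF from 48 to 96 hours, and 1 in SF and 3 in ISF from 6 to 10 days. For the growth or loss of the difference between fluids from 48 hours to 10 days, 2 members were called, HPGDS lower and OXER1 higher, beside 2.99% of all genes tested (1.59% higher and 1.41% lower). Comparisons of consecutive intervals share the libraries of the time between them, and both fluids share the uncultured libraries.

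Of the 27 tested pathway genes, too, more were called in the first 48 hours than later, as of all genes. In SF 8 were called higher and 10 lower from 0 to 48 hours, 6 and 2 from 48 to 96 hours, 0 and 1 from 96 hours to 6 days, and none in either direction from 6 to 10 days by limma, beside 45.4%, 27.3%, 2.05% and 4.78% of all genes tested. In ISF the counts were 7 higher and 15 lower, 4 and 1, 1 and 2, and 2 and 1, over the same intervals, beside 52.7%, 19%, 6.38% and 10.5% of all genes tested. The steepest rise from 0 to 48 hours was that of PLA2G7 (SF 6.83 ± 0.22, FDR = 9.86e-36, ISF 6.98 ± 0.22, FDR = 2.3e-36) and the steepest fall that of LTC4S. From 48 to 96 hours the extremes were PTGR1 (1.7 ± 0.49, FDR = 0.00629) and LTB4R (-1.33 ± 0.38, FDR = 0.00598) in SF and PTGIR (1.39 ± 0.32, FDR = 0.00103) and PLA2G4A (-0.72 ± 0.22, FDR = 0.0142) in ISF. PLA2G4A, which frees the arachidonic acid that both branches use, fell in ISF over each of the 4 intervals, by 0.88, 0.72, 0.76 and 1.1 on the log2 scale (FDR = 0.000603, 0.0142, 0.0215 and 0.000391), of which the second call held in 17 and the third in 15 of 18 alternatives. In SF it fell over the first 3 intervals, the third by 0.78 (FDR = 0.0321, called in 10 of 18 alternatives, with the SF culture of Moon at 6 days left out FDR = 0.126). CYSLTR2 had the largest rise in ISF after 96 hours, by 0.59 ± 0.15, FDR = 0.00913 to 6 days and 0.68 ± 0.16, FDR = 0.00158 from 6 to 10 days.

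The genes whose pattern was most like that of each member over the 68 libraries are given as a description, with no p, since the libraries share groups and horses. Genes with a mean of at least 5 GeTMM in 1 group were searched. They were HSD17B14 (r = 0.95), ACAT1 (0.93) and ACP5 (0.92) for HPGDS, PLCL2 (r = 0.94), TESC (0.93) and SEPTIN1 (0.92) for LTA4H, PPP2R5B (r = 0.91), MAP4K2 (0.91) and AATK (0.91) for OXER1 and CCDC189 (r = 0.90), PYGL (0.90) and GYS1 (0.89) for ALOX5. For ALOX5AP they were TGM3 (r = 0.95), FGR (0.95) and TSPO (0.93), for PTGER4 IL17RA (r = 0.93), PPP2R5A (0.93) and TYK2 (0.93), for PTGS2 DDX5 (r = 0.83), IFRD1 (0.83) and IRF1 (0.82) and for PTGES ADM (r = 0.90), NDUFA4L2 (0.90) and IGFBP2 (0.85). No member was among the 3 most alike of another. Among the 28 pairs of tested members, the highest correlation was that of LTA4H and OXER1 (r = 0.76) and the lowest that of HPGDS and ALOX5 (r = -0.79).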

How the data were processed

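BMNC of 8 horses were profiled by RNA-seq uncultured and after culture in SF or ISF. According to the submitters, reads were trimmed, aligned with STAR 2.7.2a to EquCab3.0 and counted per gene, and the deposited table holds GeTMM, which are RPKM values after scaling by trimmed means of M values, computed by the authors. Counting is not stated to use strand, so antisense reads cannot be told apart. Reads were recovered from the steps of the deposited values: a whole number was found for all values of 24065 of 24065 genes above 0 (tolerance 0.02 reads), with 15653444 to 35971676 reads on genes per library (median 22253416). The smallest whole numbers that fitted a gene were taken. For genes above 0 in few libraries almost any values give such numbers, so that share was partly fixed in advance. Limits at 0 are 3 reads and cover counting error only.

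The 10 members were taken by symbol. Members, pathway lists and marker lists were chosen with earlier results of these data known. All 68 libraries entered 1 limma 3.58.1 fit (R 4.3.3) on log2(GeTMM + 1) with 9 groups, no horse term and a mean trend, over the 14570 genes that reached 0.5 GeTMM in 7 or more libraries. The 13 comparisons were ISF against SF at 4 times, 4 intervals per fluid, and the change of the ISF against SF difference from 48 hours to 10 days. P-values were adjusted by Benjamini-Hochberg over all genes tested, and genes with FDR under 0.05 are called. Every member is named. Pathway genes are named where called in at least 2 of the 4 fluid comparisons or at the extremes of an interval, and PTGER2, PTGES3, PLA2G2D, PLA2G4A at 10 days and the pathway genes without a call were added after their values were seen. The fit script was tested on simulated data.

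The horse, given by the labels, pairs the cultures. Deviations from group means of the SF and ISF culture of a horse correlated with r from -0.22 to 0.56 (median 0.36), over 0.1 in 26 of 30 pairs. Horse as a block was 1 of 18 alternatives. The others were a pseudocount of 0.1, no filter, a fit of only the groups compared, quantile normalization, library weights, voom on recovered reads, leaving out libraries that stood apart, and leaving out each horse. Leaving out the SF library of Lurie at 10 days was added after the data were seen. Figures were drawn with matplotlib 3.10.9.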

Additional observations from a re-analysis of the deposited data

Results flagged for a closer look

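Among 86 groups of 4 to 10 libraries in which a member varied, 11 held a library that stood far from the rest by Dixon's test at its 95% critical value, which chance gives in about 1 of 20 groups, and many of these values rest on few reads. Of the cyclooxygenases, PTGS1 stood out in the SF culture of Dealings at 48 hours with 0.557 GeTMM (others 0 to 0.122) and in the SF culture of Lurie at 10 days with 0.193 (others 0.0253 to 0.0843). PTGES stood out at 0 hours in the library of Catnip with 0.0853 GeTMM, where the other 7 held no read, at 96 hours in the SF culture of Moon with 0.233 (others 0.0326 to 0.0863), and at 10 days in the SF culture of Lurie with 21.3 (others 0.10 to 1.63), the library with the highest stromal genes. HPGDS stood out in the SF culture of Dealings at 10 days with 48.0 GeTMM (others 13.2 to 21.5).

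ALOX5AP was low in the SF culture of Dealings at 96 hours with 34.4 GeTMM (others 116 to 231). ALOX15 stood out in 3 groups in which nearly all libraries were at 0, at 0 hours in Flash with 0.131 GeTMM (others 0 to 0.0423), at 48 hours in the SF culture of RimRun with 0.0649 and at 10 days in the SF culture of Catnip with 0.0301 (all others 0). PTGER4 was low in the SF culture of Moon at 6 days with 1.1 GeTMM (others 13.5 to 20.6), the library with the highest GeTMM total and the highest mature neutrophil genes of its group. The causes of these values were not tested.

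The difference between ISF and SF changed from 48 hours to 10 days, by the test of that change itself, for HPGDS, which became lower in ISF by a further 1.96 log2 units (log2 fold change -1.96, limma FDR = 0.00117), and for OXER1, whose deficit in ISF shrank (log2 fold change 1.78, limma FDR = 0.00765).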

How the results depend on the processing

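Each comparison of each tested member was recomputed under 18 alternatives, which gave 1872 values: 1750 kept their direction and their side of the threshold, 16 lost a call, 67 gained one and 39 changed sign, all of them uncalled and with a log2 fold change of at most 0.23 in size in the original fit. The cause of each change was not tested, apart from fewer libraries where some were left out. The block changed no member's call beyond those named above. Reads per library limit PTGS1, ALOX15, early PTGES and late PTGS2.

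Counts of genes called in ISF against SF (48 hours, 96 hours, 6 days or 10 days), over the intervals, or for the change of the difference moved by over 1.5 times as follows. Horse as a replicate block gave 660 at 48 hours, 2431 at 96 hours, 1552 in ISF and 558 in SF from 96 hours to 6 days, 1450 in SF from 6 to 10 days and 1095 for the change of the difference. Fitting only the compared groups gave 2686 at 96 hours, 1995 at 6 days, 61 in SF from 96 hours to 6 days and 3 in SF from 6 to 10 days. Library weights gave 2233 at 48 hours, 4206 at 96 hours, 4941 and 2215 in ISF from 48 to 96 hours and to 6 days, 6341 and 491 in SF over the same intervals, and 1641 for the change of the difference. Quantile normalization gave 397 at 48 hours and moved the share of higher calls in SF from 6 to 10 days from 66.8% to 54.1%. With the ISF cultures of Dealings and Dreamer left out 901 were called at 96 hours. With the SF culture of Moon left out at 6 days 728 were called at 48 hours, 2438 at 96 hours, 1680 in ISF from 96 hours to 6 days, 319 in SF from 6 to 10 days and 979 for the change of the difference. Leaving out each horse gave 75 to 721 at 48 hours, then 882 to 2508 (96 hours) and 1945 to 4086 (10 days), 1824 to 3788, 422 to 1444 and 854 to 2278 in ISF over the last 3 intervals, 147 to 315 and 198 to 768 in SF over the last 2, and 173 to 1174 for the change of the difference.

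Counts of members called moved with the block to 2, 2 and 3 in ISF over the last 3 intervals and 1 in SF from 6 to 10 days, and when only the compared groups were fitted to 3 in ISF from 48 to 96 hours and 0 from 6 to 10 days. Library weights gave 2 at 48 hours and 3, 2 and 2 in ISF over the last 3 intervals, voom 2 in ISF from 48 to 96 hours and 1 for the change of the difference, and a pseudocount of 0.1 gave 1 for that change. Quantile normalization gave 2 in ISF from 48 to 96 hours and 1 to 6 days, leaving out Dealings and Dreamer gave 2 in ISF from 96 hours to 6 days, and leaving out the library of Moon gave 2 at 48 hours and 2, 1 and 2 in ISF over the last 3 intervals. Leaving out each horse gave 1 to 2 at 48 and at 96 hours, 1 to 3, 0 to 1 and 0 to 2 in ISF over the last 3 intervals, 0 to 1 in SF from 6 to 10 days and 1 to 3 for the change.

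Signs changed for PTGES in SF from 48 to 96 hours with the block (0.041), library weights (0.0094), voom (0.47) and a pseudocount of 0.1 (0.090). PTGES between fluids turned at 48 hours with voom (0.042), at 96 hours with voom (-0.21) and a pseudocount of 0.1 (-0.025), and at 6 days with library weights (-0.064). ALOX5 at 48 hours (-0.17), PTGS2 in SF (-0.091) and PTGER4 in ISF (-0.0077, voom -0.00087) from 96 hours to 6 days turned with library weights, PTGS2 there also without the library of Moon (-0.094). Quantile normalization turned LTA4H in SF from 48 to 96 hours (0.073), OXER1 in SF from 6 to 10 days (-0.0040) and PTGS2 in ISF from 96 hours to 6 days (0.0086), and leaving out Dealings and Dreamer turned LTA4H in ISF from 48 to 96 hours (0.011). Leaving out each horse gave PTGES -0.074 to 0.053, -0.021 to 0.042 and -0.030 to 0.38 between fluids at 48 hours, 96 hours and 6 days and -0.019 to 0.079 in ISF and -0.040 to 0.055 in SF from 48 to 96 hours, ALOX5 -0.20 to 0.092 between fluids at 48 hours and -0.22 to 0.13 in ISF from 96 hours to 6 days, LTA4H -0.27 to 0.064 in ISF and -0.20 to 0.0074 in SF from 48 to 96 hours, HPGDS -0.28 to 0.030 and PTGER4 -0.047 to 0.080 in ISF from 96 hours to 6 days, and PTGS2 -0.062 to 0.065 and -0.073 to 0.39 in SF over the last 2 intervals.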
